A study of Homo sapiens with 4 samples.

Results

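The widest stretches of open chromatin in vehicle-treated LNCaP cells were followed into cells given GSK2879552. They were chosen by their width alone: every peak of the vehicle list on chromosomes 1 to 22 that was 1000 bp or wider, together with the GSK2879552 peaks that overlapped them by at least 1 bp. The rule gave 3611 regions of 185728 vehicle peaks on these chromosomes (194551 in the whole vehicle list), and 5530 of 157286 GSK2879552 peaks overlapped them. Since vehicle width chose the regions, their width in the vehicle list is a description, and other values of that list may move with it. LNCaP cells come from a human prostate tumour and respond to androgen. The treated cells received 50 µM GSK2879552 for 4 hours in RPMI with 5% CSS, per the labels, and the control cells received vehicle. The labels carry the same treatment text for both groups and give 10% FBS for maintenance. Each condition had 2 sequencing lanes, labelled technical replicates, and 1 peak list that both lanes share, so 1 library stood for each condition. No test between conditions was possible, and every interval given here covers counting error only.

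GSK2879552 inactivates LSD1 (KDM1A), an enzyme that removes methyl groups from histone H3. LSD1 is known as a subunit of the CoREST repressor complex and as a partner of the androgen receptor in prostate cells. In ATAC-seq a transposase inserts adapters where DNA is not wrapped tightly, and a peak is a run of positions with more tags than the local background. Long uninterrupted peaks are known mostly from promoters of active genes and from strong enhancers, where several nucleosomes in a row are displaced or loosely held. Whether a given region here is a promoter or an enhancer was not analysed, as no gene positions of the hg19 build were used. No annotation of repeated sequence was used either, so peaks in such sequence were neither marked nor removed here. Positions are 1-based hg19 coordinates.

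The wide regions were a small part of the vehicle list by number and a larger part by length. They made up 1.94% of vehicle peaks (exact binomial interval 1.88 to 2.01) and 9.15% of the bases that those peaks covered, 4.41 of 48.2 Mb. Their median width was 1170 bp, with an interquartile range of 1072 to 1320 bp. Of them, 1201 were narrower than 1100 bp, 331 reached 1500 bp and 8 reached 2000 bp. The GSK2879552 list held 1527 peaks of 1000 bp or more, 0.971% of its peaks (0.923 to 1.02), with 72 of at least 1500 bp and 4 of at least 2000 bp. The GSK2879552 list thus held 0.423 wide peaks for each one in the vehicle list (exact interval 0.398 to 0.449). Its genome-wide background was 1.18 times as high, 2.72 tags against 2.31 with vehicle. Whether the background bears on the number of wide peaks was not tested.

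The tags at each summit, which the fold and p of the deposited lists yield as whole numbers, were high in these regions. The highest GSK2879552 summit had a median of 70 tags per region (range 21 to 193), and the vehicle summit a median of 84 tags (24 to 188). Over all peaks of chromosomes 1 to 22 the medians were 20 tags in the GSK2879552 list and 22 tags in the vehicle list. Along the genome coordinate the summit stood at a median of 50.2% of the width of the vehicle region (interquartile range 31.3 to 68.1%). Offsets to the 2 sides cancel in this median, so it does not show that summits were central. The summit lay a median of 378 bp from the nearer end, and never closer than 65 bp to an end.

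All 3611 wide vehicle regions overlapped a GSK2879552 peak (100%, exact interval 99.9 to 100), against 61.7% of all vehicle peaks on these chromosomes and 99.6% of those of 500 to under 1000 bp. In all 3611, the vehicle summit itself lay inside a GSK2879552 peak. The highest GSK2879552 summit stood within 50 bp of the vehicle summit in 2740 regions, or 75.9%, and more than 250 bp away in 272, or 7.53%. None of these regions was therefore missing from the GSK2879552 list, and the lists differed in how far each region extended and in whether it was listed as 1 peak or several.

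The GSK2879552 peaks at these regions were mostly narrower. The widest overlapping GSK2879552 peak had a median width of 937 bp (interquartile range 725.5 to 1091), set beside 1170 bp with vehicle, and the median ratio of widths was 0.788. It was narrower than the vehicle peak in 3362 regions, or 93.1%, against 80.8% of all vehicle peaks listed in both conditions. It was wider in 241 regions and equal in 8. It still reached 1000 bp in 1415 regions, or 39.2%, and in 512 it was under 50% of the vehicle width. Narrower vehicle peaks listed in both were reduced by a similar factor. The median log2 width ratio was -0.34 in wide regions, -0.30 at 500 to under 1000 bp and -0.29 under 500 bp.

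**Figure D1:**
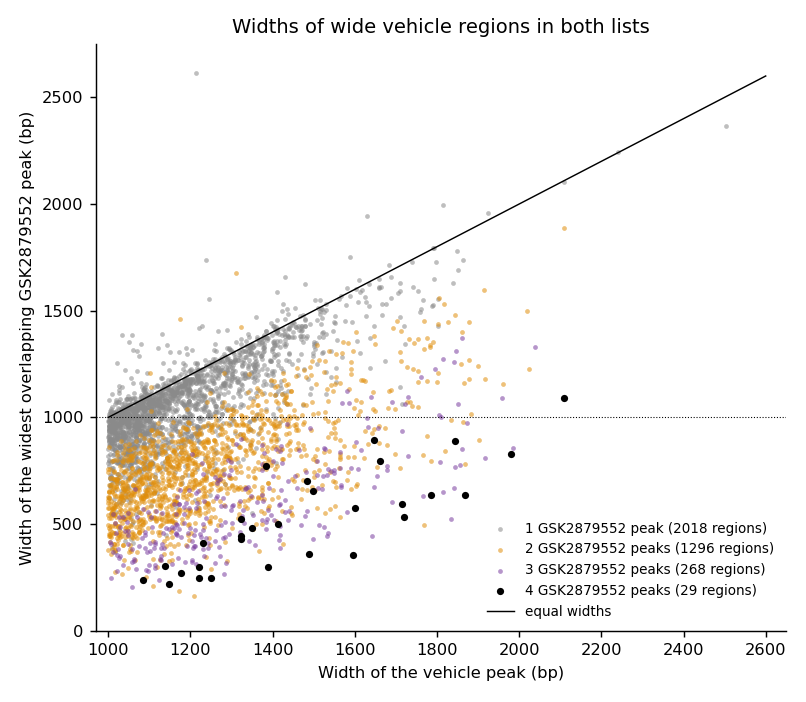
Width of the widest overlapping GSK2879552 peak (vertical axis, bp) against the width of the vehicle peak (horizontal axis, bp) for the 3611 wide vehicle regions, 1 point each, coloured by the number of overlapping GSK2879552 peaks, with a solid line at equal widths and a dotted line at 1000 bp. The 2018 regions with 1 GSK2879552 peak lie mostly near the line of equal widths, and nearly all regions with more pieces lie below it.

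How much narrower depended on how the regions were chosen. Picked instead by a GSK2879552 width of 1000 bp or more, the 1527 regions were narrower with GSK2879552 in 1166 cases, or 76.4%, and the median width ratio was 0.960. The 1554 pairs of a single GSK2879552 and a single vehicle peak with a mean width of 1000 bp or more had a median ratio of 0.947, and GSK2879552 was the narrower in 84.6% of them. GSK2879552 was thus the narrower in most regions under all 3 choices, by far less under the last 2. The third choice also leaves out every split region. Wide vehicle regions that formed such pairs had a median log2 width ratio of -0.12, against -0.34 in all wide regions. Under the third choice it was -0.079.

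Many wide regions were listed as several separate peaks with GSK2879552. Of the 3611 regions, 1593 overlapped 2 or more GSK2879552 peaks, a share of 44.1% (exact interval 42.5 to 45.8), against 3.16% of all vehicle peaks. There were 1296 regions with 2 pieces, 268 with 3 and 29 with 4. Width itself makes room for pieces, and the share was 20.7% among vehicle peaks of 500 to under 1000 bp. Within the wide regions it was 32.6% (29.9 to 35.3) at 1000 to under 1100 bp and 68.6% (63.3 to 73.5) at 1500 bp or more.

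The reverse was seen far less often. Of the 1527 GSK2879552 peaks of 1000 bp or more, 96 overlapped 2 or more vehicle peaks, a share of 6.29% (5.12 to 7.62). For the 3611 widest GSK2879552 peaks, which reached down to 818 bp, it was 175, or 4.85% (4.17 to 5.60). All 1527 wide GSK2879552 peaks overlapped a vehicle peak, and 112 of them overlapped no wide vehicle region. At these 112 the widest vehicle peak had a median of 893.5 bp, and 63 of them joined 2 or more vehicle peaks. Of the 5530 GSK2879552 peaks at the wide regions, 57 spanned 2 or more vehicle peaks.

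**Figure D2:**
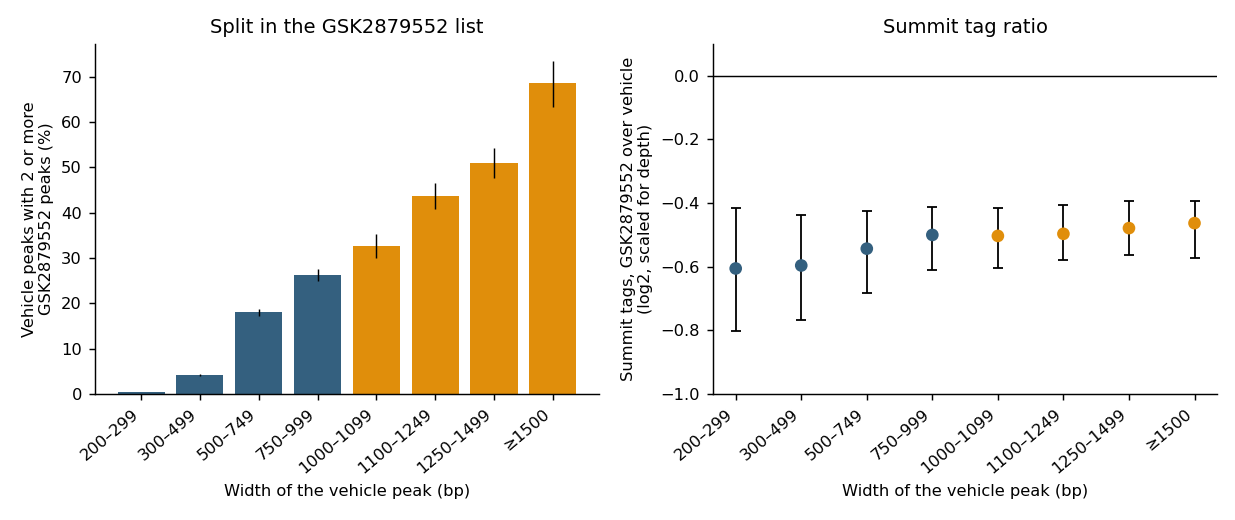
Left, the share of vehicle peaks on chromosomes 1 to 22 that overlapped 2 or more GSK2879552 peaks, by width class of the vehicle peak, with exact 95% intervals; right, the median scaled log2 ratio of summit tags, GSK2879552 over vehicle, with the interquartile range. Orange marks the classes of 1000 bp or more; the share of split peaks was 18.1% at 500 to under 750 bp and 68.6% at 1500 bp or more, and the median tag ratio lay below 0 in every class shown.

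In the split regions 1 piece usually kept the summit and most of the width. The highest piece had a median of 67 tags and 698 bp, and the 1919 other pieces had a median of 30 tags and 222 bp. The highest piece was also the widest, or as wide as it, in 1382 of the 1593 split regions. The gaps between neighbouring pieces had a median length of 104 bp (interquartile range 73 to 147, longest 703 bp). The shortest was 51 bp, and no 2 peaks of the GSK2879552 list lay closer to each other, against 50 bp in the vehicle list, so shorter dips would not be seen as gaps. No gap could lie on the vehicle summit, since that summit was inside a GSK2879552 peak in every region. The gap centres stood at a median of 53.1% of the way from the vehicle summit to the end of the region (interquartile range 38.1 to 65.8%). The near side of a gap was a median of 348 bp from the summit and at least 37 bp.

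Counted in bases, GSK2879552 peaks covered 3748 of the 4407 kb of the wide vehicle regions. The bases not covered were spread over both ends and the interior. The lower-coordinate end lost 212 kb, the higher-coordinate end 206 kb, and the gaps between pieces took 241 kb, which is 36.6% of all bases lost. Bases gained beyond the vehicle ends came to 24.1 and 26.4 kb. The ends moved inwards on both sides in 2245 regions, on 1 side in 1217 and on neither in 149. The end farther from the summit lost a median of 32 bp and a mean of 68.6 bp, and the nearer end a median of 24 bp and a mean of 47.2 bp.

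Region by region, the median share of the vehicle width covered was 87.2% (interquartile range 78.6 to 93.8). It was at least 90% in 1415 regions, 100% in 77 and under 50% in 35. In the 2018 regions with 1 GSK2879552 peak the median was 91.9%, and their median width was 1044.5 bp with GSK2879552 and 1133 bp with vehicle. With 2 pieces it was 83.7%, with 3 pieces 77.5% and with 4 pieces 74.7%. Among narrower vehicle peaks listed in both, the median covered share was 83.0% at 500 to under 1000 bp and 77.7% under 500 bp.

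The 10 widest regions show both forms, kept whole or split. The widest of all, 2504 bp on chromosome 15, 100466419 to 100468922, was a single GSK2879552 peak of 2365 bp, with 60 tags at its summit against 69 with vehicle. Its summit lay 1968 bp from the vehicle summit, near the other end. On chromosome 6, 58777305 to 58779545, the GSK2879552 peak was 2243 bp wide and the vehicle peak 2241 bp, with 124 tags with GSK2879552 against 118 with vehicle. A region of 2108 bp on chromosome 21, 9825459 to 9827566, had a GSK2879552 peak of 2102 bp, with 166 tags with GSK2879552 against 165 with vehicle. These 3 were the only ones of the 10 that stayed a single peak. Their vehicle backgrounds were 14.9 tags on chromosome 15, 32.2 on chromosome 6 and 41.4 on chromosome 21. Among the rest of the 10 the highest was 21.8, on chromosome 19, and the median over all wide regions was 8.3.

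The other 7 were split. On chromosome 18, 8704059 to 8706168, the vehicle peak of 2110 bp was met by 4 GSK2879552 peaks of 216, 253, 1090 and 183 bp. On chromosome 4, 3293321 to 3295299, there were also 4, of 429, 244, 827 and 157 bp, where vehicle had 1979 bp. Chromosome 20, 60696482 to 60698465, held pieces of 215, 855 and 350 bp and chromosome 21, 46493332 to 46495369, pieces of 213, 218 and 1330 bp. Chromosome 17, 54910528 to 54912551, and chromosome 14, 64970114 to 64972133, had 2 pieces each, the wider of them 1229 and 1498 bp. The mildest split was on chromosome 19, 54693051 to 54695158, where pieces of 1887 and 190 bp lay 72 bp apart and covered 96.6% of the vehicle peak.

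**Figure D3:**
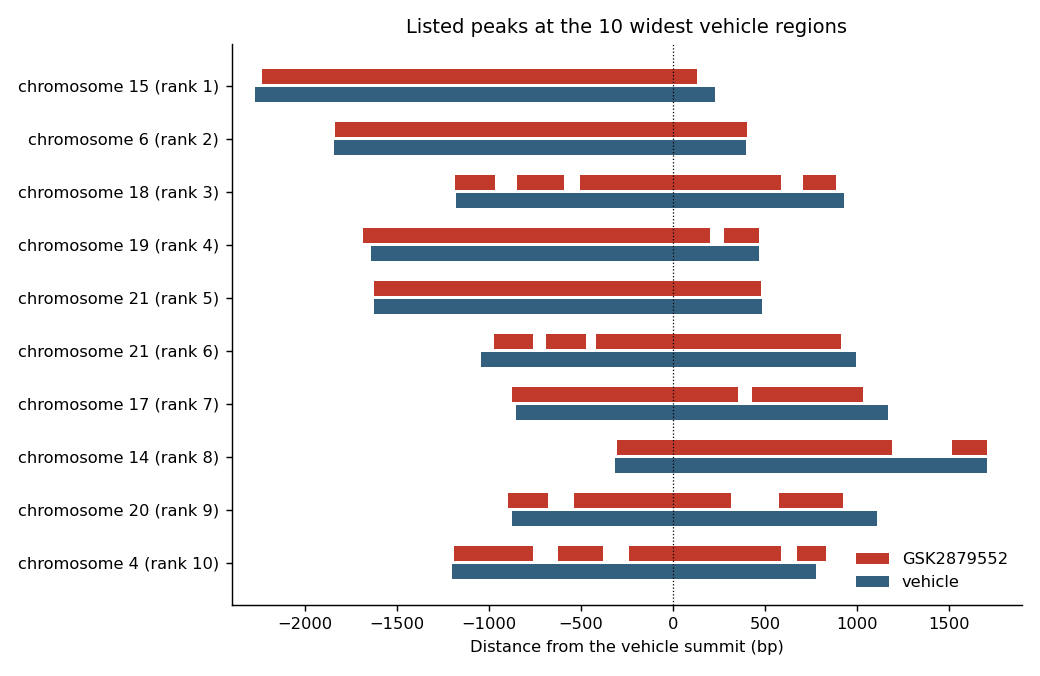
Extent of the listed peaks at the 10 widest vehicle regions, as distance from the vehicle summit in bp (dotted line), with GSK2879552 peaks above the vehicle peak of each region. The regions on chromosomes 15 and 6 and the first on chromosome 21 hold 1 GSK2879552 peak each, and the other rows hold 2 to 4 pieces.

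At the other extreme, 5 regions were covered least. On chromosome 5, 251800 to 252972, GSK2879552 peaks of 123 and 188 bp covered 26.5% of the 1173 bp vehicle peak, with at most 21 tags against 26 with vehicle. On chromosome 11, 68079822 to 68081030, pieces of 164 and 163 bp covered 27.0%, with at most 27 tags against 43 with vehicle. On chromosome 9, 132175364 to 132176511, coverage was 32.8%, yet the summit still had 74 tags with GSK2879552 against 87 with vehicle. The lower 556 bp of that region were not listed. The 2 others, on chromosome 20, 31172031 to 31173139, and chromosome 8, 42921933 to 42923050, were covered by 34.5% and 35.8%. Among the 29 regions with 4 pieces, the first 5 along the genome were 4 on chromosome 1 (from 32478878, 155022949, 228870768 and 249119825) and 1 on chromosome 2 (from 73339470). Their widest pieces were 249 to 891 bp long, where the vehicle peaks had 1222 to 1844 bp. The first 5 of the regions covered over their full length were each spanned by 1 GSK2879552 peak. Such a peak is at least as long as the vehicle peak by construction. The first of these regions, chromosome 1, 11332808 to 11333833, had 1128 bp with GSK2879552 and 1026 bp with vehicle.

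Summit tags were lower with GSK2879552 in nearly every wide region. In 3533 regions, or 97.8%, the highest GSK2879552 summit had fewer tags than the vehicle summit before any scaling, against 83.1% of all vehicle peaks listed in both. After scaling by the genome-wide background, it was lower in 3604, or 99.8%, against 93.8%. That share was 99.2% among vehicle peaks of 500 to under 1000 bp listed in both, close to that of wide regions. The median scaled log2 ratio in wide regions was -0.49 (interquartile range -0.58 to -0.40), a ratio of 0.712. In 5 regions, or 0.138%, the log2 ratio lay below -1, against 6.80% of all vehicle peaks listed in both. Vehicle peaks under 500 bp had a median of 21 tags, and with few tags a ratio carries a wide counting error. Summed over all wide regions, 251784 GSK2879552 against 299544 vehicle tags came to 0.715 once scaled (interval 0.711 to 0.719). For narrower vehicle peaks listed in both it was 0.685 (0.684 to 0.686). No summit of either list reached 200 tags, and with a correction for a ceiling at 200 (1 tag per position and strand), added for narrower peaks after the values were seen, the summed ratios were 0.681 for wide regions and 0.666 for narrower peaks. The order also depended on width class: vehicle peaks under 200 bp listed in both had a median ratio of 0.723, above the 0.712 of wide regions, and 0.716 against 0.675 with the correction. With 1 library per condition, a difference between libraries cannot be told apart from one between treatments. In such bulk data, fewer open cells and less opening per cell cannot be told apart either.

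Compared at equal vehicle tags, the ratios of wide and narrower peaks differed by an amount that varied with the tags. With 50 to 69 vehicle tags the median log2 ratio was -0.54 in 696 wide regions, -0.56 in 3915 peaks of 500 to under 1000 bp and -0.60 in 10660 peaks under 500 bp. Among peaks with 70 to 84 vehicle tags, the median log2 ratio was -0.51 in 1077 wide regions, -0.51 in 2861 peaks of 500 to under 1000 bp and -0.54 in 2339 peaks under 500 bp. With 100 to 119 vehicle tags the medians were -0.45, -0.46 and -0.45. The interquartile ranges overlapped throughout. The share of split peaks differed at equal tags, with 43.8%, 15.6% and 0.898% in the class of 70 to 84 tags and 36.3%, 10.1% and 0% in that of 100 to 119 tags, in the same order of widths.

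Split and unsplit regions had nearly the same summit ratio. The median log2 ratio was -0.48 in regions with 1 GSK2879552 peak (72 tags with GSK2879552 and 85 with vehicle, medians), -0.50 with 2 pieces (69 with GSK2879552 and 82 with vehicle) and -0.50 with 3 (64 with GSK2879552 and 78 with vehicle). In the 29 regions with 4 pieces it was -0.53, with 60 tags with GSK2879552 and 69 with vehicle.

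The background of a peak takes in a wider stretch than the summit. Above its genome-wide level it counts the tags in the 10 kb around the summit, the region itself included. Only 1 GSK2879552 and 0 vehicle summits of the wide regions stood at the genome-wide level. The median was 730 tags per 10 kb with GSK2879552 and 830 tags with vehicle. Scaled for depth, the median ratio was 0.749 (interquartile range 0.708 to 0.793), and 3594 of the 3611 regions had a ratio below 1. The median log2 ratio was -0.42 in wide regions and -0.28 in vehicle peaks of 500 to under 1000 bp listed in both. In those under 500 bp it was -2.8e-06, and vehicle peaks of that class had a median background of 2.51 tags, near the genome-wide 2.31. As the region's own tags are part of the 10 kb count, these values do not show whether its surroundings differed.

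Low summit ratios were found at regions that stayed whole and at split ones. The first 5 named here were picked among unsplit regions, so their staying whole was fixed by the choice. Of the regions with 1 GSK2879552 peak and at least 100 tags over both lists, chromosome 2, 96191997 to 96193119, had 38 GSK2879552 and 66 vehicle tags, a scaled ratio of 0.490 (0.320 to 0.741). Its width was 954 bp with GSK2879552 and 1123 bp with vehicle. Chromosome 1, 53018214 to 53019540, had 47 GSK2879552 against 78 vehicle tags (0.513, 0.349 to 0.745), and chromosome 11, 35683653 to 35684755, 39 GSK2879552 against 63 vehicle tags (0.527, 0.344 to 0.797). Next came chromosome 1, 227505398 to 227506669, with 51 GSK2879552 against 81 vehicle tags and 0.536 (0.370 to 0.770). On chromosome 8, 91013019 to 91014111, the ratio was 0.539 (0.363 to 0.794), although the GSK2879552 peak, at 1129 bp, was wider than the vehicle peak of 1093 bp. With fewer tags over both lists, chromosome 17, 65240862 to 65241878, had the lowest ratio of all wide regions, 0.416 (0.241 to 0.699), from 23 GSK2879552 against 47 vehicle tags. Chromosome 20, 34680985 to 34682024, also unsplit, had 0.446 (0.283 to 0.689). Of the split regions, chromosome 2, 33171829 to 33172869, had 0.486 (0.294 to 0.789) in 2 pieces. Chromosome 21, 38349412 to 38350550, had 0.493 (0.301 to 0.795) in 4 pieces. The intervals of the first 5 and of these 2 split regions include the summed ratio of 0.715. Those of the regions on chromosomes 17 and 20 end just below it. These regions were picked as the lowest of many, so their intervals are too narrow for a comparison.

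The scaled ratio exceeded 1 in 7 wide regions, of which 6 stayed a single peak with close to the same width. They were named after their values were seen. On chromosome 1, 236876953 to 236878337, there were 38 GSK2879552 and 25 vehicle tags, a ratio of 1.29 (0.760 to 2.23), with widths of 1407 bp with GSK2879552 and 1385 bp with vehicle. On chromosome 11, 93970673 to 93971829, there were 43 GSK2879552 against 31 vehicle tags (1.18, 0.726 to 1.94), and on chromosome 8, 86726521 to 86728130, 43 GSK2879552 against 32 vehicle tags (1.14, 0.707 to 1.87). The other 4 lay on chromosome 8, 43793161 to 43794255, chromosome 15, 21312855 to 21314215, chromosome 1, 142537973 to 142538974, and chromosome 17, 41399728 to 41401201. Their ratios were 1.01 to 1.04, with 69 to 82 GSK2879552 and 57 to 69 vehicle tags. All 7 intervals include 1, with lower bounds of 0.703 to 0.760. Only the region on chromosome 11 was split, into 2 pieces 61 bp apart.

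Wide regions on a very high local background had ratios closer to 1, some of them at summits near the ceiling of 200 tags. The vehicle background exceeded 20 tags in 23 regions, a limit set after the values were seen. Whether these regions lie in repeated sequence, and are open chromatin at all, was not tested. Their median scaled ratio was 0.792, against 0.712 in the other 3588, and in 9 of the 23 the GSK2879552 summit had more tags before scaling, against 46 of the 3588. With the correction for the ceiling their median ratio was 0.768, against 0.675 in the others. Their summed ratio moved the other way with it, from 0.802 to 0.832. That of the others went from 0.714 to 0.679. The highest background, 70.2 tags with GSK2879552 and 64.9 with vehicle, was at chromosome 1, 569286 to 570286, with 193 summit tags with GSK2879552 and 188 with vehicle. Chromosome 1, 121484043 to 121485450, had 188 GSK2879552 against 184 vehicle tags, and chromosome 7, 61968623 to 61969688, 152 GSK2879552 against 143 vehicle tags. On chromosome 16, 46432445 to 46433477, the GSK2879552 peak was 1386 bp wide where the vehicle peak had 1033 bp. The widest GSK2879552 peak at any of the wide regions was of this kind: chromosome 7, 56438844 to 56440057, had 2612 bp with GSK2879552 and 1214 bp with vehicle, and a scaled ratio of 0.956 (0.711 to 1.29). Next by GSK2879552 width came the unsplit regions of chromosomes 15, 6 and 21 named above. The fifth was chromosome 8, 12611486 to 12613300, with 1995 bp with GSK2879552 against 1815 bp with vehicle. Not all such regions were alike: chromosome 7, 5564946 to 5566680, had 61 GSK2879552 against 84 vehicle tags, a ratio of 0.618 (0.437 to 0.869), in 2 pieces.

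A few regions were wide without a high summit. There were 35 with under 40 vehicle tags, with a median of 28 tags with GSK2879552 and 33 with vehicle. Of these, 25 were split, or 71.4%, against 43.8% of the 3576 regions with 40 tags or more. Their median covered share was 81.7%, against 87.2%. In 171 of the 3611 regions both outer ends agreed within 10 bp between the lists. Their median scaled ratio was 0.714, so regions with fixed outer ends were lower at the summit by as much as all wide regions, and 76 of them were split.

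Wide regions more often had no other peak nearby than narrower vehicle peaks did. No other vehicle peak lay within 5 kb of the ends in 1648 regions, or 45.6% (exact interval 44.0 to 47.3), against 38.9% (38.1 to 39.7) of vehicle peaks of 500 to under 1000 bp and 40.7% (40.5 to 41.0) of those under 500 bp. Within these 5 kb there were 158 peaks listed with GSK2879552 only and 1001 listed with vehicle only, or 0.158 for each. The same number was 0.222 around peaks of 500 to under 1000 bp and 0.489 around those under 500 bp, which make up most vehicle peaks. The next wide region on the same chromosome lay a median of 301 kb away (interquartile range 114 to 811), and 58 neighbouring pairs were under 10 kb apart. The closest pair, 50 bp apart on chromosome 6 at 58776241 to 58777254 and 58777305 to 58779545, was listed as 2 peaks of 1024 and 2243 bp with GSK2879552 also.

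The regions were not spread evenly over the chromosomes. They made up 3.25% of vehicle peaks on chromosome 19 (164 regions, exact interval 2.78 to 3.78), 2.94% on chromosome 17 (2.56 to 3.37) and 2.80% on chromosome 16 (2.40 to 3.24). The share was lowest on chromosome 6, at 1.46% (1.24 to 1.70), with 155 regions. In the GSK2879552 list the share of peaks of 1000 bp or more was highest on chromosome 17, 1.34% (1.07 to 1.67), and lowest on chromosome 20, 0.646% (0.426 to 0.939). On chromosome 19 it was 1.16% (0.874 to 1.52).

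The number of wide GSK2879552 peaks for each wide vehicle peak ranged from 0.320 on chromosome 22 (24 GSK2879552 against 75 vehicle peaks, exact interval 0.193 to 0.513) to 0.570 on chromosome 18 (45 GSK2879552 against 79 vehicle peaks, 0.386 to 0.832). It was 0.323 on chromosome 19 (53 GSK2879552 against 164 vehicle peaks, 0.232 to 0.443). These intervals include the autosome-wide 0.423. The share of split regions ranged from 36.4% on chromosome 7 (29.8 to 43.3) to 54.7% on chromosome 22 (42.7 to 66.2), and only that of chromosome 7 lay apart from the 44.1% of all wide regions, just below it. The median log2 summit ratio varied little, between -0.53 on chromosome 13 and -0.47 on chromosome 8. Chromosome X held 27 wide peaks with GSK2879552 and 75 with vehicle, and chromosome Y held 1 with GSK2879552 and 3 with vehicle.

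**Figure D4:**
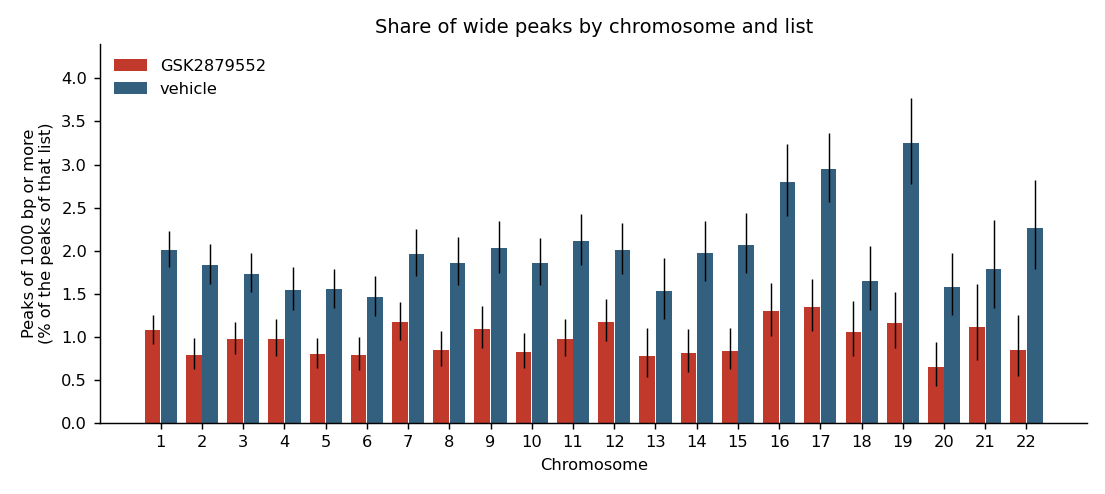
Peaks of 1000 bp or more as a share of all peaks of the same list (vertical axis, %) on chromosomes 1 to 22, with GSK2879552 left of vehicle on each chromosome and exact 95% intervals as bars. The vehicle share was highest on chromosomes 19, 17 and 16, at 3.25, 2.94 and 2.80%, and the GSK2879552 share was below the vehicle share on all 22 chromosomes.

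The limit of 1000 bp did not mark a step in these values. The 143 vehicle peaks within 10 bp above it had a median of 82 tags, 34.3% were split and the median covered share was 87.5%. For the 137 peaks within 10 bp below it these values were 85 tags, 31.4% and 86.4%. There were 14 vehicle peaks of exactly 1000 bp and 16 that fell 1 bp short, and the first 5 of each along the genome are named here. Just inside the limit, chromosome 1, 85724686 to 85725685, and chromosome 1, 239549652 to 239550651, had 1000 bp with vehicle and GSK2879552 peaks of at most 543 and 907 bp. The other 3 of these 5 began at 71402895 on chromosome 5 and at 915766 and 156432993 on chromosome 7. Just outside it, the first 5 began on chromosome 1 at 76189690, 91966150, 205781990 and 228400682 and on chromosome 2 at 42720854. Their widest GSK2879552 peaks were 443 to 841 bp long.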

How the data were processed

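ATAC-seq of LNCaP cells gave 1 deposited peak list per condition, GSK2879552 or vehicle, each from 2 lanes that the labels call technical replicates; samples were grouped by the agent in the labels, and nothing there says that more than 1 culture was used. The submitters' processing notes name BWA 0.7.2, SAMtools 0.1.18, MACS2 2.1.2 and hg19/GRCh37, without settings. The authors deposited for each peak its position, a score (not used), the fold enrichment of the summit over background, and the −log10 p and −log10 q of the summit. Read depth is unknown. From fold, taken as (tags + 1)/(background + 1), and the −log10 p of a Poisson count above background, summit tags and background were recovered by calculation. They came out as whole tags, with −log10 p met within 0.001, for 100% of peaks in both lists. Tags were scaled by the ratio of the lowest background of each list, 2.72 with GSK2879552 and 2.31 with vehicle. No test between conditions was made. Shares have exact (Clopper-Pearson) 95% intervals and tag ratios exact binomial ones, for counting error only. All counts over vehicle peaks use the whole list of chromosomes 1 to 22. An overlap needs 1 bp.

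The regions and lists were chosen with earlier results of these data known. Named were the 10 widest regions, the first 5 by least and most coverage, by pieces, by lowest and highest scaled ratio (1 piece, at least 100 tags over both lists), by GSK2879552 width and on each side of the limit. The sets by ratio above 1, log2 ratio below -1, background above 20 tags and under 40 tags were added after values were seen. Python 3.11.15, NumPy 2.4.6, pandas 2.3.3, SciPy 1.17.1 and Matplotlib 3.10.9 were used, and the recovery and overlaps were checked on simulated data.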

Additional observations from a re-analysis of the deposited data

How the results depend on the processing

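Of 44 values under other settings 22 moved and 0 reversed. A lower width limit of 800 bp gave 6959 regions, 35.7% split and a median log2 width ratio of -0.28, and a limit of 1500 bp gave 331 regions, 68.6%, -0.57 and a median log2 summit ratio of -0.46. Joining peaks over gaps of 100 bp or less gave 4429 regions instead of 3611, 35.3% split, 86.2% median coverage and -0.29 in log2 width. That number of regions was not among the 22 values counted as moved. A -log10 q of at least 5 gave 34.8% split and 86.3% median coverage. Requiring 50% of the region covered left 99.03% with a GSK2879552 peak, and a reciprocal 50% overlap 85.4%. The median log2 width ratio was -0.058 for regions chosen by GSK2879552 width. It was -0.079 for pairs of 1 peak each chosen by mean width, and -0.12 for such pairs among the wide vehicle regions. The median log2 summit ratio was -0.26 with no scaling, -0.50 with background subtracted and -0.57 corrected for 1 tag per position and strand. The reverse split shares, added after seeing the data, were 6.29% of wide GSK2879552 peaks and 4.85% of the equally many widest. Beyond what each setting does by construction, the cause was not tested. Medians were compared by the binomial interval of their order statistics. No paired analysis was possible because each condition had 1 peak list, and no replicate could be left out. Differences between cultures could not be measured, and lists without read depth leave the scaling resting on background alone.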
